A study of Homo sapiens with 3 samples.

Results

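Ribosome biogenesis is the assembly of ribosomes in the nucleolus. RNA polymerase I transcribes the ribosomal RNA precursor, small nucleolar RNPs (snoRNPs) modify it, and many assembly factors fold, cut and export the small and large subunits. The MYC proteins are transcription factors known to bind E-box sequences near the starts of many of these genes, and amino acid supply is known to control polymerase I through mTORC1. These genes were followed in undifferentiated cells of khES3, a human embryonic stem (ES) cell line, after 5 hours in medium without leucine, in medium without lysine, or in complete medium. Each medium had 1 Affymetrix array of total RNA from the whole culture, so no test between media was possible, and every difference describes 2 arrays. Of the 40 genes chosen by name, 35 had a probe set that the platform annotation ties to that gene alone, with 81 such probe sets in all. NOP56, DKC1, BOP1 and PPAN are read only by probe sets that name several genes, and GNL3 was not analysed here. Levels are MAS5 signals, which the authors scaled to a common mean per array, and differences are in log2 signal, where 1 is 2-fold. All 35 genes are among the 12961 with a probe set at or above the median level of the array, and 6481 of these, called the brighter genes here, are at or above the median level of the 12961. Each is represented by its brightest probe set, which was above the floor of 56.7 (leucine-deprived), 62.4 (lysine-deprived) and 54.6 (complete) in every case. Of the 81 probe sets, 61 passed this level filter and 20 did not; 9 of those 20 belong to MYCN and 3 to RRP12.

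Most of these genes were slightly lower after either deprivation, whereas MYC was higher. In leucine-deprived cells 24 of 35 genes lay below complete medium, with a median difference of -0.16, against -0.00 over the 6481 brighter genes. In lysine-deprived cells 31 of 35 lay below complete medium, with a median of -0.22, against -0.03 over the brighter genes. After leucine removal 50.5% of brighter genes and 48.3% of all genes above the floor on both arrays were below complete medium, and after lysine removal 53.3% and 49.3%. Over the 35 genes the differences ran from -0.70 to 0.89 after leucine removal and from -0.74 to 0.49 after lysine removal. In whole cultures, fewer cells that make an mRNA and less of it per cell cannot be told apart. The 10 measured stem cell markers were above the floor on every array, with a summed signal of 245172 in leucine-deprived, 240075 in lysine-deprived and 228743 in complete medium. POU5F1 and TDGF1 had no probe set of their own. Of 10 fibroblast markers 7 were above the floor on every array, and the summed signal of the list was 27628, 31409 and 29992 in the same order. COL3A1, LUM and DCN were each below it on at least 1 array. Within that list COL1A1 read 13186, 18609 and 11552 in leucine-deprived, lysine-deprived and complete medium, and THY1 8348, 7503 and 12734, so single markers differed in opposite directions. Which cells gave these signals was not tested, so the summed signal of the list cannot be read as that of fibroblasts alone. The 4 mesoderm markers were dim, with a summed signal of 425, 728 and 263. TBXT read 202, 454 and 171 and HAND1 133, 117 and 63.1, both above the floor on every array. Other dim lists differed too. In the same order, endoderm markers summed to 396, 569 and 512, trophoblast markers to 386, 246 and 222 and neural markers to 102, 32.6 and 118. The part of these marker differences in the results was not tested. As a measure of a known response on these arrays, 7 genes of the amino acid response had medians of 2.69 after leucine and 2.54 after lysine removal. ATF4, the transcription factor of amino acid shortage, was 0.62 and 0.80 higher, the least of the 7.

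**Figure D1:**
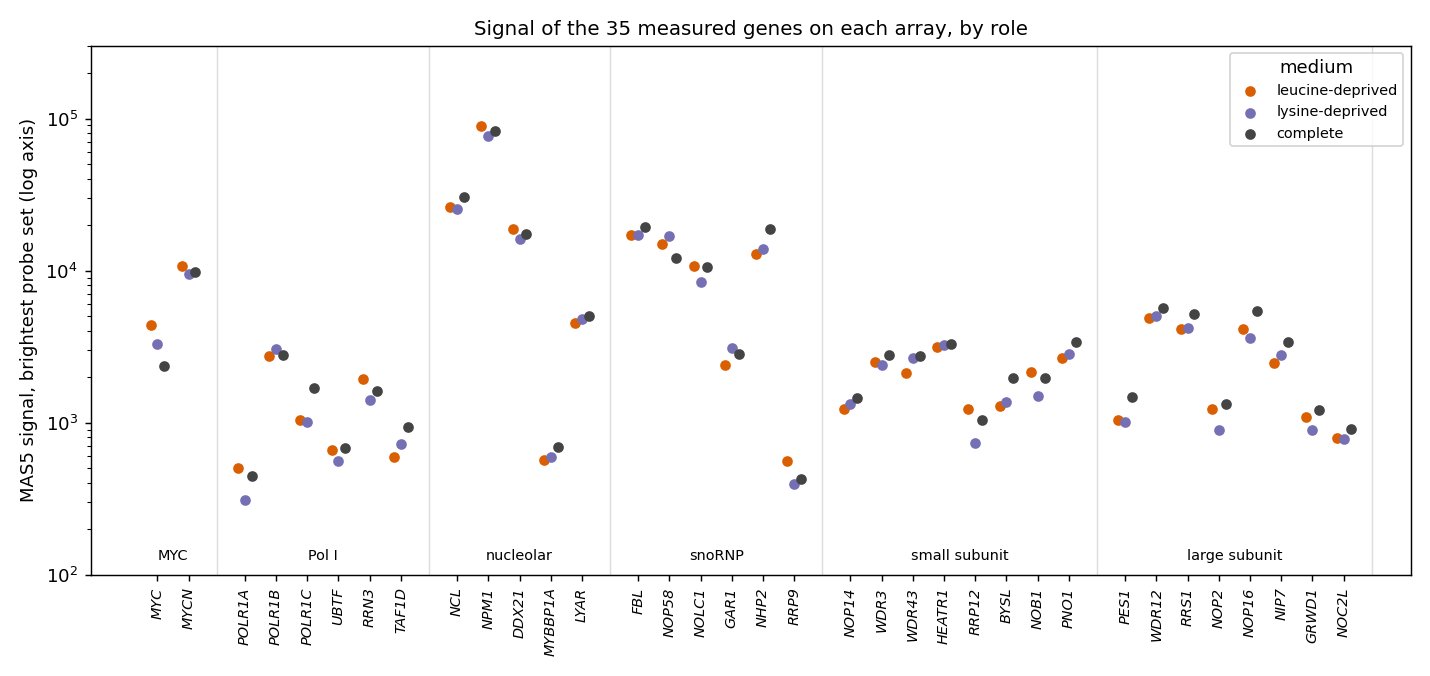
MAS5 signal (log axis) of the brightest probe set of each of the 35 measured genes on the leucine-deprived, lysine-deprived and complete-medium arrays, 1 array each, grouped by role. MYC is highest on the leucine-deprived array at 4402, and each of the 8 large subunit factors shown is highest in complete medium.

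Error was taken from genes with several probe sets, since there are no replicate cultures. In 2016 genes with several probe sets at the brighter level, log2 differences of the same gene had an SD among its probe sets of 0.21 after leucine removal, 0.30 after lysine removal and 0.29 between the deprivations. This spread leaves out any difference between cultures. Of the 35 genes 32 are brighter genes. POLR1A, MYBBP1A and RRP9 are not, and over all genes with several probe sets the SDs were wider, 0.49, 0.57 and 0.58. Lower signals by over 2 of the narrower SDs, those at the brighter level, were seen for 6 genes after leucine removal. They were POLR1C, TAF1D, BYSL, NHP2, PES1 and NIP7, where 4.84% of brighter genes passed that limit. After lysine removal only POLR1C passed it, against 4.43% of brighter genes. MYC was the only member higher by over 2 SDs after leucine removal (7.61% of brighter genes), and 0 of 35 were so after lysine removal (6.02%).

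At a limit of 0.32 in log2, 10 of 35 genes (28.6%) were lower after leucine removal, against 9.24% of brighter genes and 15.4% of all genes above the floor on both arrays. They were POLR1C, TAF1D, BYSL, NHP2, PES1, NIP7, NOP16, WDR43, PNO1 and RRS1. MYC and RRP9 were higher by at least 0.32 (11.6% of brighter and 20.3% of all genes). After lysine removal 12 of 35 (34.3%) were lower by at least 0.32, against 18.4% of brighter and 21.3% of all genes, and MYC and NOP58 were higher (17.1% and 25.2%). The lower genes were POLR1C, NOP16, NOP2, PES1, POLR1A, BYSL, RRP12, GRWD1, NHP2, NOB1, TAF1D and NOLC1. Both sets of differences use the same complete-medium array, so they are not independent of each other. Control probe sets for ACTB had a 3′ over 5′ ratio of 7.55 on the leucine-deprived, 11.25 on the lysine-deprived and 5.44 on the complete-medium array, and that of GAPDH was likewise lowest in complete medium, at 1.08. This sign of RNA quality differs with the media, and its part in the differences was not tested.

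**Figure D2:**
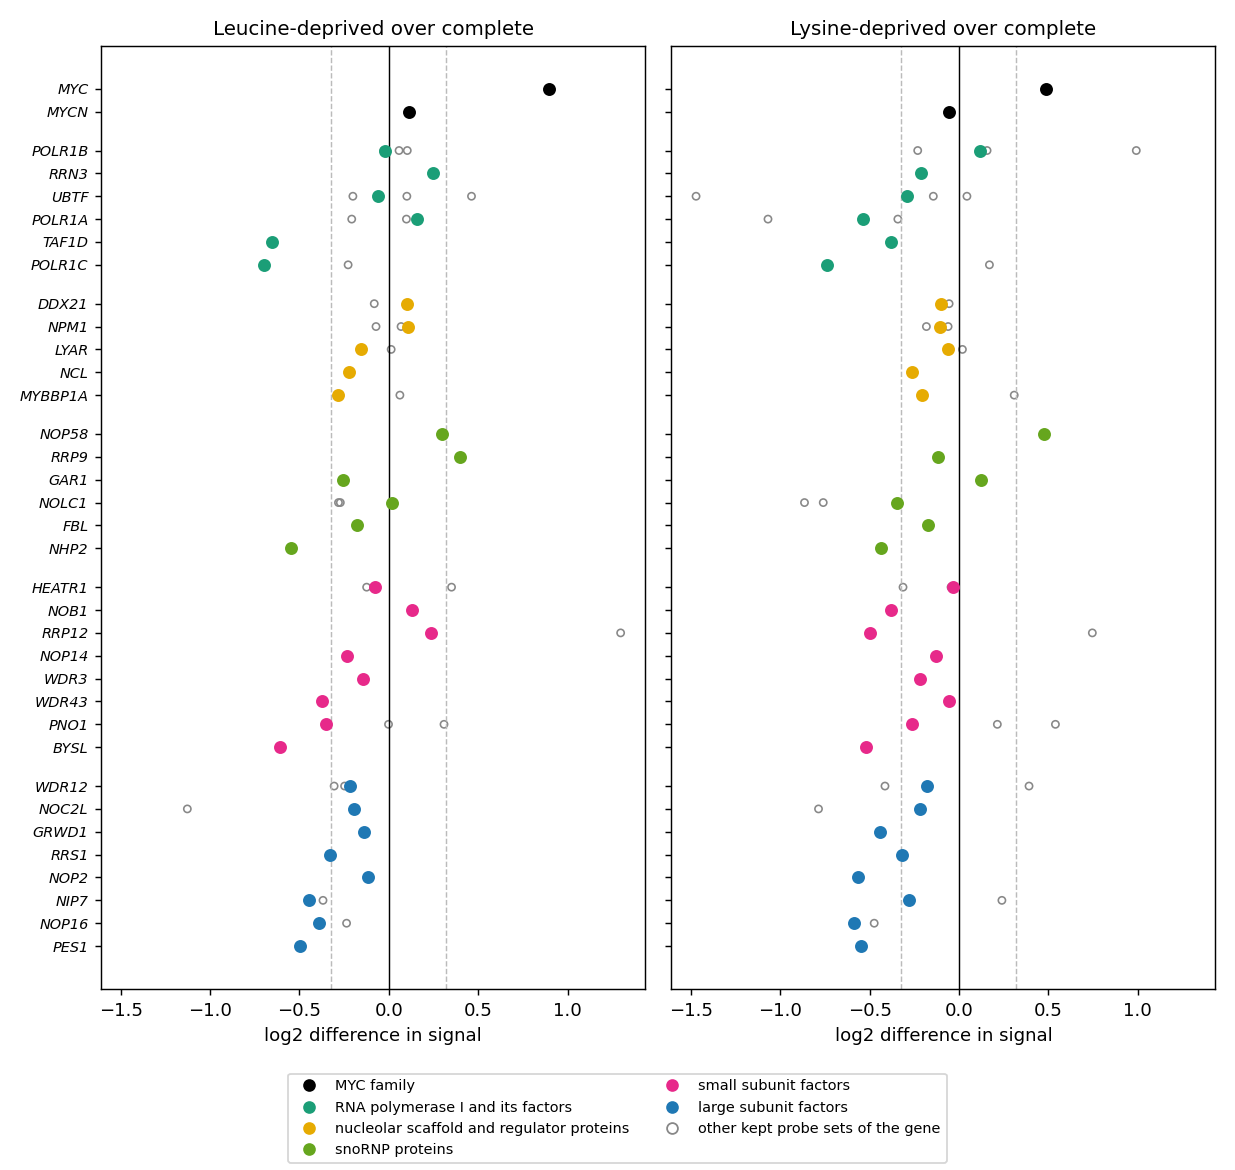
Log2 difference in signal of each gene for leucine-deprived over complete (left) and lysine-deprived over complete medium (right). Filled points are the brightest probe set, coloured by role, open points the gene's other probe sets that passed the level filter, and dashed lines mark 0.32 in either direction. The filled points of all 8 large subunit factors lie left of 0 in both panels, and that of MYC lies right of it.

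The sequences that these genes share around their starts were read from RefSeq promoters of GRCh38.p14, each 250 bases before and 50 after a transcription start. Of the 35 genes 30 had an entry, with 37 starts. The canonical E-box CACGTG, the same on both strands and the sequence MYC is known to bind, was found in 12 of 30 genes (40%). It was found in 12.5% of the 10510 measured genes with an entry and in 3 of 47 cytosolic ribosomal protein genes (6.38%). The 12 sites are shown because their place is alike: 9 begin within the 36 bases after the start. Each is printed 5′ to 3′ on the gene's strand with the E-box in capitals, 10 bases on either side where the window allows, and the position of its first base counted from the start at +1.

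BYSL (+29), chr6:41921517-41921542, plus strand: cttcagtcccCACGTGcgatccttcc
PES1 (+14), chr22:30591882-30591907, minus strand: cttggcagggCACGTGcgggaggaag
NOP2 (+36), chr12:6568242-6568266, minus strand: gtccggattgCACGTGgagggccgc
WDR43 (+4), chr2:28894660-28894685, plus strand: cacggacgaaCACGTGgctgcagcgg
PNO1 (+10), chr2:68157887-68157912, plus strand: tgcagctgcgCACGTGtttcagccgg
NOP14 (+16), chr4:2963376-2963401, minus strand: cgcggcccggCACGTGtcttagggta
FBL (+7), chr19:39846358-39846383, minus strand: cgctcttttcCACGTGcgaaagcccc
GAR1 (+32), chr4:109815783-109815808, plus strand: gccagaggggCACGTGgcgccggtga
MYBBP1A (+28), chr17:4555342-4555367, minus strand: ggccggagcaCACGTGtttcgtgttt
RRP9 (-5), chr3:51941894-51941919, minus strand: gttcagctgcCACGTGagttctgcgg
DDX21 (-31), chr10:68956606-68956631, plus strand: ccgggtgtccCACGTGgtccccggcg
LYAR (-64), chr4:4290070-4290095, minus strand: gcggcgagtcCACGTGctccccgcgg

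The shares depended on the window. Within the 50 bases after the start, a window chosen after these positions were seen, 9 of 30 genes (30%) held CACGTG, against 1.58% of measured genes. In the 250 bases before the start 2 of 30 (6.67%) held it, against 11.1% of measured genes. The RRP9 site, which begins at -5, runs across the start and was counted in neither part. The non-canonical E-box CACGCG, searched on both strands, was found in 11 of 30 genes (36.7%) and in 22% of measured genes over the whole window. TGATGNAAN, the element bound by C/EBP and ATF factors, was found in 0 of 30 genes and in 2.81% of measured genes. The 12 genes with CACGTG had median differences of -0.24 after leucine and -0.15 after lysine removal, and the 18 without it -0.14 and -0.27. The genes with the E-box had the lower median after leucine removal and the higher one after lysine removal. Printing all 12 sites was decided after they were seen; matches are letters in a window and do not show binding.

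**Figure D3:**
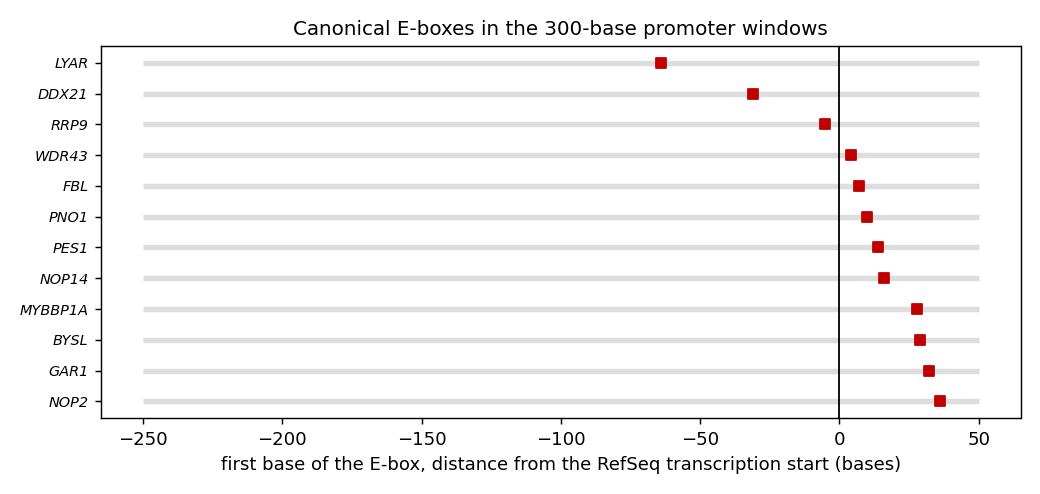
Position of the first base of each CACGTG (red squares) relative to the RefSeq transcription start in the 12 genes that hold one; grey bars are the windows searched. Of the 12 sites 9 begin after the start, none further than 36 bases.

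MYC encodes the transcription factor that drives many ribosome biogenesis genes. Its signal was 4402 in leucine-deprived and 3315 in lysine-deprived cells, against 2367 in complete medium. It was thus 1.86-fold higher (0.89) after leucine and 1.40-fold higher (0.49) after lysine removal, on its only probe set. It lay at percentile 98.8 of the brighter genes after leucine removal and at percentile 90.8 after lysine removal. MYCN, the family member of embryonic and neural cells, read 10662, 9458 and 9842 on the leucine-deprived, lysine-deprived and complete-medium arrays, differences of 0.12 and -0.06. The other 9 MYCN probe sets were dim. Of 13 MYC partners and antagonists 11 were measured, with medians of 0.08 after leucine and 0.10 after lysine removal. After median centring of the arrays these medians are -0.05 and -0.15, where those of all genes are -0.12 and -0.24. Of these 11 genes 4 were higher by at least 0.32 after leucine removal (36.4%) and 2 after lysine removal (18.2%), where 20.3% and 25.2% of all genes were so, and 0 were lower by as much. MNT, a repressor that competes with MYC for its partner MAX, had signals of 1390 and 1350 in leucine- and lysine-deprived cells, against 821 in complete medium (0.76 and 0.72). MXD3, another such repressor, was dim, with 132 and 209 against 74.6 in complete medium (0.83 and 1.49). MYCL, a further MYC gene, read 468 in leucine-deprived and 169 in lysine-deprived cells, against 204 in complete medium. It was 1.20 higher after leucine removal, and both its probe sets were higher, by 0.94 or more. After lysine removal they disagreed, at -0.27 and 0.33.

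RNA polymerase I and its factors differed more after lysine than after leucine removal in their medians, -0.34 and -0.04 over 6 genes. POLR1A encodes the largest catalytic subunit. Its signals were 500 in leucine-deprived and 309 in lysine-deprived cells, against 449 in complete medium, so that the lysine-deprived array stood 1.45-fold lower (-0.54) and the leucine-deprived array 0.16 higher. All 3 of its probe sets were lower after lysine removal, from -1.07 to -0.34, whereas after leucine removal they ran from -0.21 to 0.16. POLR1B, the second catalytic subunit, read 2756, 3031 and 2796 (-0.02 after leucine, 0.12 after lysine removal). Its 4 probe sets ran from -0.23 to 0.99 after lysine removal. POLR1C, a subunit that polymerase I shares with polymerase III, stood lowest of the 35 genes in both comparisons on its brighter probe set. It read 1041 and 1012 in leucine- and lysine-deprived cells, against 1688 in complete medium, which makes it 1.62-fold (-0.70) and 1.67-fold (-0.74) lower. Its other probe set differed by -0.23 after leucine and by 0.17 after lysine removal, so the lysine value rests on 1 probe set. The 100 bases before its start hold CACGCG, in capitals, and no CACGTG, shown because this gene was lowest.

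POLR1C, chr6:43516989-43517088, plus strand, RefSeq GRCh38.p14: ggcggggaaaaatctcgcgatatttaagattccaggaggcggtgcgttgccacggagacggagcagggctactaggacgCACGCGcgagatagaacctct

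The initiation factors differed in direction. RRN3, which recruits polymerase I to the promoter and is known to be a target of mTOR signalling, read 1924 in leucine-deprived, 1402 in lysine-deprived and 1623 in complete medium. It was 0.25 higher after leucine removal and differed by -0.21 after lysine removal. UBTF, the upstream binding factor of ribosomal DNA, read 658, 560 and 685, differences of -0.06 and -0.29, and its 4 probe sets disagreed in sign on both arrays. TAF1D, a subunit of the promoter selectivity factor, was lower on both: 598 and 723 in leucine- and lysine-deprived cells, against 940 in complete medium (-0.65 and -0.38).

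The remaining polymerase I genes, 9 in number and all measured, had medians of -0.19 after leucine and -0.22 after lysine removal. After leucine removal 0 of 9 were lower by at least 0.32, against 15.4% of all and 9.24% of brighter genes. After lysine removal 2 were (22.2%), near the 21.3% of all and 18.4% of brighter genes. TAF1A, another selectivity factor subunit, differed by -0.27 and -0.33, and POLR1E by -0.01 and -0.50. TAF1C was 0.06 and 0.39 higher. The 5 subunits common to polymerases I, II and III had medians of -0.29 and -0.52. POLR2F read 4191 and 3875 in leucine- and lysine-deprived cells, against 6318 in complete medium (-0.59 and -0.71), and POLR2H 3160 and 3026 against 4349 (-0.46 and -0.52). All 5 lay below complete medium after lysine removal, as did 49.3% of all genes. Of the 5, 4 (80%) were lower by at least 0.32, against the same 21.3% and 18.4%. After leucine removal 4 lay below, and POLR2E was 0.09 higher, with its second probe set at -0.15. Polymerase III genes had medians of -0.20 and -0.30 over 19 genes, with POLR3F at -1.24 and -0.49 and POLR3A, the largest subunit, at -0.30 and -0.83. A second POLR3A probe set was higher, by 0.07 and 0.18. Polymerase II subunits outside the shared ones had medians of -0.09 and -0.02 over 7 genes, the second of which turned to 0.01 under cyclic loess normalization.

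Nucleolar scaffold and regulator genes differed little, with medians of -0.16 and -0.11 over 5 genes. NCL encodes nucleolin, a chaperone of ribosomal RNA. It read 26191 and 25416 in leucine- and lysine-deprived cells, against 30523 in complete medium (-0.22 and -0.26). NPM1, nucleophosmin of the granular nucleolus, read 88714, 76363 and 82309, differences of 0.11 and -0.11, within the spread between probe sets. DDX21, an RNA helicase, read 18752 and 16248 against 17450 in complete medium (0.10 and -0.10). MYBBP1A, a repressor of polymerase I, read 567 and 597 against 690 in complete medium (-0.28 and -0.21). Its dimmer probe set was 0.06 and 0.31 higher. LYAR, a nucleolar regulator, read 4527 and 4839 against 5046 in complete medium (-0.16 and -0.06).

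The snoRNP proteins lay on either side of complete medium. NOP58, a core protein of the box C/D particles that guide methylation, was higher on both arrays: 14904 in leucine-deprived and 16820 in lysine-deprived cells, against 12107 in complete medium (0.30 and 0.47). FBL, fibrillarin, the methyltransferase of the same particles, was not: it read 17163 and 17172, against 19378 in complete medium (-0.18 and -0.17). NHP2, a core protein of the box H/ACA particles that guide pseudouridylation, was lower: 12845 and 13874, against 18760 in complete medium, or 1.46-fold (-0.55) and 1.35-fold (-0.44). GAR1 of the same particles read 2381 and 3095, against 2841 in complete medium (-0.25 and 0.12). NOP10, a further H/ACA protein from the longer list below, read 13170 and 16249, against 18178 in complete medium (-0.46 and -0.16). So the 3 measured H/ACA proteins lay below complete medium after leucine removal, and 2 of them after lysine removal. NOLC1, a chaperone of both particle types, read 10716 in leucine-deprived and 8353 in lysine-deprived cells, against 10599 in complete medium (0.02 and -0.34). All 3 NOLC1 probe sets were lower after lysine removal, the others by -0.76 and -0.86. RRP9, a protein of the particle that processes the small subunit precursor, read 563, 394 and 428 (0.40 and -0.12). Medians over the 6 measured genes were -0.08 and -0.15.

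Small subunit factors had medians of -0.19 after leucine and -0.24 after lysine removal, with 6 and all 8 of 8 genes below complete medium. BYSL, bystin, needed for the late steps of the small subunit, was the lowest of them on both arrays: 1282 and 1363 in leucine- and lysine-deprived cells, against 1953 in complete medium. That is 1.52-fold (-0.61) and 1.43-fold (-0.52) lower, on 1 probe set. PNO1, a partner of the final cleavage enzyme, read 2659 and 2829, against 3392 in complete medium (-0.35 and -0.26). Its 2 other probe sets disagreed with this, at -0.00 and 0.31 after leucine and 0.21 and 0.54 after lysine removal. NOB1, that enzyme, read 2148 in leucine-deprived and 1504 in lysine-deprived cells, against 1961 in complete medium (0.13 and -0.38). RRP12, a factor of pre-ribosome export, had the same order with 1229 and 737, against 1041 (0.24 and -0.50), although a dim second probe set, below the floor in complete medium, was 1.30 and 0.75 higher. WDR43, a protein of the early processome, read 2131 and 2663, against 2765 in complete medium (-0.38 and -0.05). Of the other early processome genes, NOP14 differed by -0.23 and -0.13, WDR3 by -0.14 and -0.21, and HEATR1 by -0.08 and -0.03.

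The 8 measured large subunit factors were the only role group with every gene below complete medium on both arrays, by its brightest probe set. Their medians were -0.27 after leucine and -0.38 after lysine removal. This did not hold for large subunit factors at large. Of 47 others, from the longer list below, 26 and 28 lay below complete medium, with medians of -0.05 and -0.05. Below complete medium lay 48.3% and 49.3% of all genes and 50.5% and 53.3% of brighter genes. PES1, pescadillo, of the complex that matures the large subunit RNA, read 1041 and 1004 in leucine- and lysine-deprived cells, against 1467 in complete medium, 1.41-fold (-0.50) and 1.46-fold (-0.55) lower. Its partner WDR12 read 4914 and 5038, against 5711 in complete medium (-0.22 and -0.18). The dimmer WDR12 probe sets were at -0.25 and -0.31 after leucine removal, but disagreed after lysine removal, at 0.39 and -0.41. The third protein of that complex, BOP1, was not analysed here. NOP16 was the lowest after lysine removal: 4115 and 3595, against 5403 in complete medium, -0.39 and -0.59. Its second probe set that passed the filter was also lower, by -0.24 and -0.47. NIP7, a factor of large subunit RNA processing, read 2480 and 2790, against 3382 in complete medium (-0.45 and -0.28), and its second probe set differed by -0.37 and 0.24. NOP2, a methyltransferase of large subunit RNA, read 1224 in leucine-deprived and 899 in lysine-deprived cells, against 1328 in complete medium (-0.12 and -0.56). RRS1, which helps bring the small ribosomal RNA of the large subunit into the particle, read 4148 and 4180, against 5217 in complete medium (-0.33 and -0.32). GRWD1, a histone- and ribosome-binding protein, read 1098 and 891, against 1210 (-0.14 and -0.44), and NOC2L 796 and 786, against 913 (-0.20 and -0.22).

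Probe sets of the same gene give a check on these values. Of the 16 genes with several probe sets past the level filter, 5 had all of them lower after leucine removal: POLR1C, WDR12, NOP16, NIP7 and NOC2L. RRP12 had all of them higher, and 10 were mixed. After lysine removal 7 had all of them lower, POLR1A, NPM1, DDX21, NOLC1, HEATR1, NOP16 and NOC2L, 9 were mixed and 0 had all higher. The same counts were not made over all genes with several probe sets, so whether these are unusual cannot be told. Over the 61 probe sets, 39 lay below complete medium after leucine and 46 after lysine removal, where 49.2% and 50.2% of all 23055 such probe sets did. The other 19 genes, among them MYC, BYSL, NHP2, PES1 and NOP2, have 1 probe set each and no such check.

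**Figure D4:**
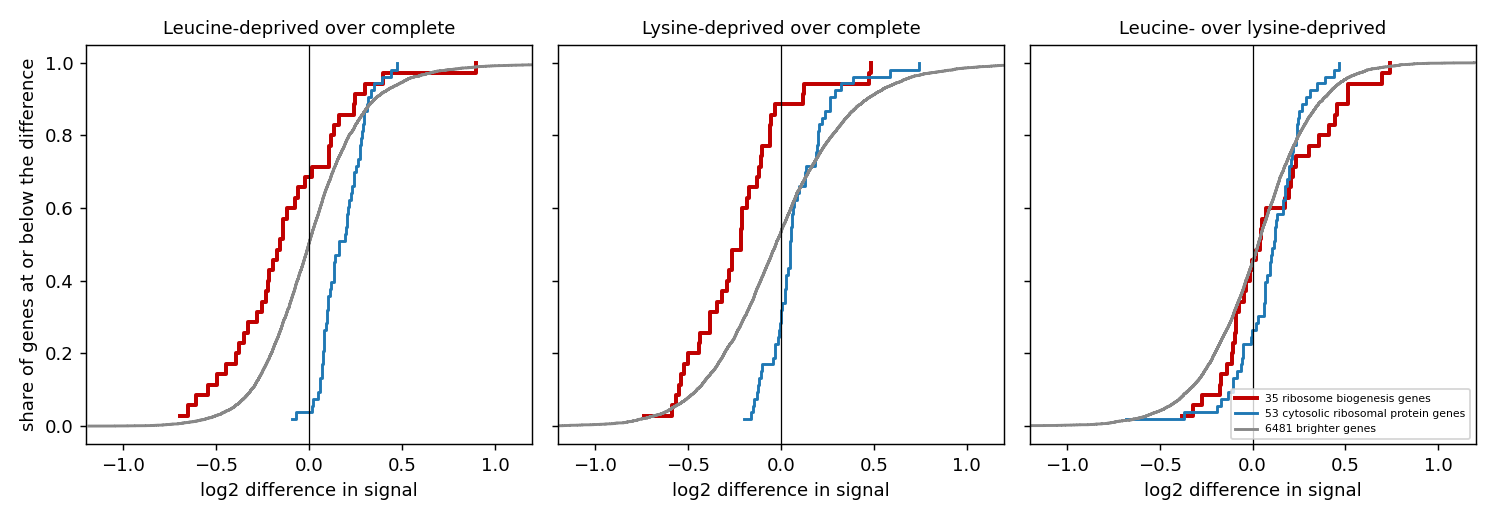
Share of genes (vertical) at or below each log2 difference (horizontal) for the 35 ribosome biogenesis genes (red), 53 cytosolic ribosomal protein genes (blue) and the 6481 brighter genes (grey). The red curve lies left of the grey one over most of the range in the first 2 panels, with medians of -0.16 and -0.22, and near it between the deprivations, with a median of 0.04.

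Set directly against each other, the 2 deprived arrays differed in single genes and little in the median, which was 0.04 for leucine- over lysine-deprived cells, against 0.03 over the brighter genes. Below the lysine-deprived array lay 16 of 35, as did 45.1% of brighter and 48.1% of all genes. On the leucine-deprived array 8 of 35 genes (22.9%) were higher by at least 0.32 than on the lysine-deprived array, as were 13.7% of brighter and 19.9% of all genes. They were RRP12 (0.74), POLR1A (0.69), NOB1 (0.51), RRP9 (0.51), RRN3 (0.46), NOP2 (0.45), MYC (0.41) and NOLC1 (0.36). GAR1 was the 1 gene lower by as much (-0.38), against 10.9% of brighter and 19.7% of all genes. RRP12 lay beyond 2 SDs between probe sets, as did 2.58% of brighter genes in that direction, and 0 of 35 lay so far below (2.53%). POLR1A lay beyond the same limit, but it is not a brighter gene, and its difference is within 2 of the wider SDs of 0.58. The probe sets of POLR1A, NPM1, NOLC1, RRP12 and NOP16 were all higher on the leucine-deprived array, and those of MYBBP1A, LYAR, PNO1 and NIP7 all lower.

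Other ribosome biogenesis factors were taken from a longer list. Over 116 measured genes of polymerase I, both subunit pathways and the RNA exosome the median was -0.07 after leucine and -0.12 after lysine removal. Of these 116 genes 20 (17.2%) were lower and 5 higher by at least 0.32 after leucine removal, and 30 (25.9%) were lower and 12 higher after lysine removal. Lower by as much were 15.4% and 21.3% of all genes, and 9.24% and 18.4% of brighter genes. Higher by as much were 20.3% and 25.2% of all genes, and 11.6% and 17.1% of brighter genes. Small subunit factors of this list had medians of -0.09 and -0.23 over 47 genes. NOC4L differed by -0.63 and -0.29 on its only probe set, whereas RIOK1, a late-acting kinase, was 0.42 and 0.76 higher. RRP7A differed by -0.21 and -1.08, but another of its probe sets was 1.23 higher after lysine removal. NOL6, at -0.50 and -0.39, had probe sets up to 1.39 and 1.12 higher, and WDR36, at 0.12 and -0.67, had a second probe set at -0.65 after leucine and 0.14 after lysine removal. Large subunit factors had medians of -0.05 and -0.05 over 47 genes. NLE1 differed by -0.50 and -0.94, with a second probe set 0.26 higher after lysine removal. FTSJ3, a methyltransferase, differed by -0.45 and -0.72 and BRIX1 by -0.58 and -0.22. TMA16 was higher on both arrays, with 708 and 915 in leucine- and lysine-deprived cells, against 417 in complete medium (0.77 and 1.13), and so was RSL24D1 (0.33 and 0.52). The exosome, which trims ribosomal RNA precursors, had medians of -0.06 and 0.00 over 14 genes. The second was -0.25 after median centring, where that of all genes was -0.24. These 14 include RRP1 (-0.40 and -0.44), which was also counted among the 47 large subunit factors, so the medians are not those of exosome genes alone. EXOSC4 was lower on all 3 of its probe sets (-0.55 and -0.77 on the brightest), and EXOSC7 differed by -0.41 and -0.52, with a second probe set at 0.15 after leucine removal. EXOSC6 read 1501 and 1911, against 642 in complete medium, 1.22 and 1.57 higher, but another of its 3 probe sets stood at -1.17 and -1.47.

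Cytosolic ribosomal protein genes had medians of 0.16 after leucine and 0.05 after lysine removal over 53 genes. On either array 0 of 53 were lower by at least 0.32, against 15.4% and 21.3% of all and 9.24% and 18.4% of brighter genes. Under quantile normalization these medians were 0.03 and 0.03. After median centring they were 0.03 and -0.20, where those of all genes were -0.12 and -0.24. The direction after lysine removal thus turned with the scaling, but the medians stayed above those of all genes. The median of the 35 genes stayed below that of the ribosomal protein genes under each of these scalings.

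**Figure D5:**
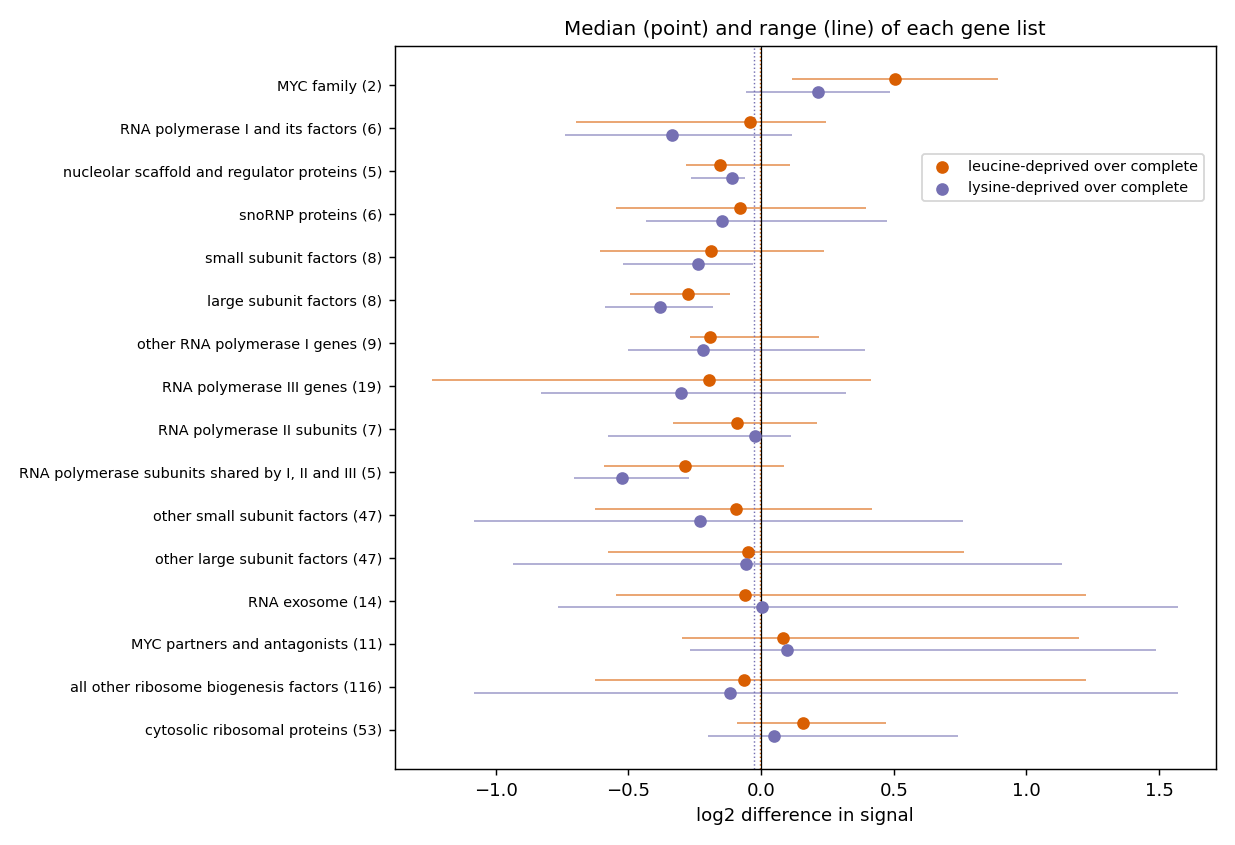
Median (point) and range from lowest to highest gene (line) of the log2 difference over complete medium for each list, with the number of measured genes in brackets; leucine-deprived in orange, lysine-deprived in purple. Dotted lines mark the medians of the brighter genes. Shared polymerase subunits and the 8 large subunit factors among the 35 genes have the lowest medians after lysine removal, -0.52 and -0.38. That of the 47 other large subunit factors is -0.05.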

How the data were processed

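RNA of 3 khES3 cultures was hybridised to 3 arrays, 1 per medium, from 100 ng of total RNA per the labels' protocols. The authors deposited linear signal intensity for every probe set, made with MAS5 per the submitters' processing notes; its version is not given in the sources used here. The 2% trimmed mean of each array was 500.1, so the authors had scaled the arrays, which removes differences in total mRNA. Of 54675 probe sets 62 controls were left out. Here each array's 40th percentile served as a floor before log2 was taken. Probe sets naming 1 gene (41091) were kept where their mean was at or above the median of all probe sets (23055), and a gene took its brightest. All 35 measured genes are described. Of other lists up to 3 lowest and 2 highest genes per deprivation were named, some of them here. The genes and lists were chosen with earlier results of these data known. A limit of 0.32 in log2 was used. The calculation was tested on simulated arrays. Alternatives were other scalings, floors, filters and probe set choices. Work was done in R 4.3.3 with limma 3.58.1 and in Python 3.11.15 with pandas 2.3.3 and numpy 2.4.6. Precision is limited by having 1 array per medium.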

Additional observations from a re-analysis of the deposited data

How the results depend on the processing

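No paired analysis was possible because each medium has 1 array, and no array could be left out. Median centring moved the median of all genes by over 0.1 (to -0.12 after leucine removal, -0.24 after lysine removal and 0.13 between the deprivations). It shifted the 35 genes with them, to medians of -0.29, -0.46 and 0.16 and to 16, 27 and 0 genes lower by at least 0.32, where 26.1%, 42.3% and 13.9% of all genes and 21.7%, 44.3% and 5.8% of brighter genes were then so. The members' median minus that of all genes was -0.17 after leucine removal, -0.22 after lysine removal and 0.02 between the deprivations; centring cannot change it. Over the alternatives it ran from -0.21 to -0.15 after leucine removal, from -0.41 to -0.17 after lysine removal and from -0.02 to 0.16 between the deprivations. After lysine removal it was -0.41 without the level filter, -0.36 with the floor at the 60th percentile and -0.33 without probe sets marked _x_at, _s_at or _a_at. With the first 2 of these settings the median of all genes moved to 0.19 and 0.14, and that of the members stayed at -0.22. A probe set below the floor on both arrays takes the difference between the 2 floors, which is not a difference of its gene. Between the deprivations it was 0.16 without the level filter and 0.15 with that floor; in both of these settings the median of all genes moved and that of the members did not. Under the 11 alternatives the median ran from -0.29 to -0.12 after leucine and from -0.46 to -0.17 after lysine removal. Between the deprivations it ran from -0.01 to 0.16, so it has no settled sign. Without the marked probe sets 23 genes were left, with 6 lower by as much after leucine removal, a median of -0.31 after lysine removal and 4 lower between the deprivations; here fewer genes were measured. Between the deprivations 2 genes were lower under quantile and cyclic loess normalization, with probe sets averaged per gene, and when centred on the genes of highest signal, a setting added after seeing the data. Of 1119 values of single genes 1100 stayed within the spread between probe sets. The settings with another floor percentile or another level filter could not change a value, since each gene's brightest probe set lay above these limits. The count therefore includes values fixed in advance. Sign changed in 40 of the 1119 values, 16 of these under median centring. Among genes that differed by at least 0.32 sign changed in 3: PNO1 after leucine removal (0.31) and POLR1C after lysine removal (0.17) without the marked probe sets, and RRP12 after lysine removal (0.12) with the mean of its probe sets, where in each case another probe set of the gene decides. Arrays without replicates limit every value.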
